A study of Mus musculus with 6 samples.

Results

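Cadherins are calcium-dependent adhesion proteins that bind the same or a related cadherin on the next cell, and most of them grip the actin cytoskeleton through catenins bound to their cytoplasmic tail. Type I (classical) cadherins hold epithelial and neural tissue together, type II cadherins mark many mesenchymal, vascular and neuronal populations, and T-cadherin has no cytoplasmic tail and is tethered to the membrane by a lipid anchor. In the developing brain, which cadherins a cell carries helps to sort neurons into groups. The 10 genes described here are the type I cadherins Cdh1, Cdh2, Cdh3 and Cdh4, the type II cadherins Cdh5, Cdh6, Cdh8, Cdh10 and Cdh11, and T-cadherin, Cdh13. They were found by taking every probe set that the platform annotation names for one of these genes alone. All 10 were measured, by 15 of the 22626 probe sets that are not controls, among 12393 genes in all. Cdh13 had 3 probe sets, Cdh2, Cdh4 and Cdh5 had 2 each, and the other 6 genes had 1.

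RNA came from 3 plates of A_212, a mouse line derived from adult hypothalamus, and 3 plates of N_46, a line derived from embryonic hypothalamus. Both lines were immortalised with the SV40 T-antigen, are labelled as expressing neuropeptide Y, received no treatment and were harvested at 70% confluence, and each plate was read on 1 Affymetrix array. Each line is 1 line of its age, so age of origin and any other difference between the lines cannot be told apart, and p-values measure only the spread between plates. The deposited log2 values have a median of 0 over the 6 arrays for every probe set. They give differences between arrays and no level, so whether a cadherin was expressed at all cannot be read, and a probe set below detection in both lines would also lie near 0. Base 2 was taken for the log because RMA, the named method, gives it.

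Cdh11 was far higher and Cdh13 clearly lower in A_212 than in N_46, Cdh2 was slightly higher, and the other 7 cadherins did not pass the test. Of the 10 genes, 2 were higher and 1 was lower in A_212 at an adjusted p under 0.05 (limma, a linear model that shares the estimate of spread across genes, two-sided, Benjamini-Hochberg over 12393 genes). That is 30.0% of the cadherins, beside 39.2% of all genes tested, of which 18.3% were higher and 20.9% lower in A_212. A count of 3 among 10 is therefore no more than the background gives. No overlap between the arrays of A_212 and those of N_46 was seen for the same 3 genes, where the background was 51.1%. Differences of at least 2-fold were called for 2 of the 10, Cdh11 and Cdh13, against 5.83% of all genes. The median difference over the 10 was -0.02, next to -0.06 over all genes. By class, 1 of 4 type I and 1 of 5 type II cadherins passed, with median differences of -0.03 and 0.00.

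**Figure D1:**
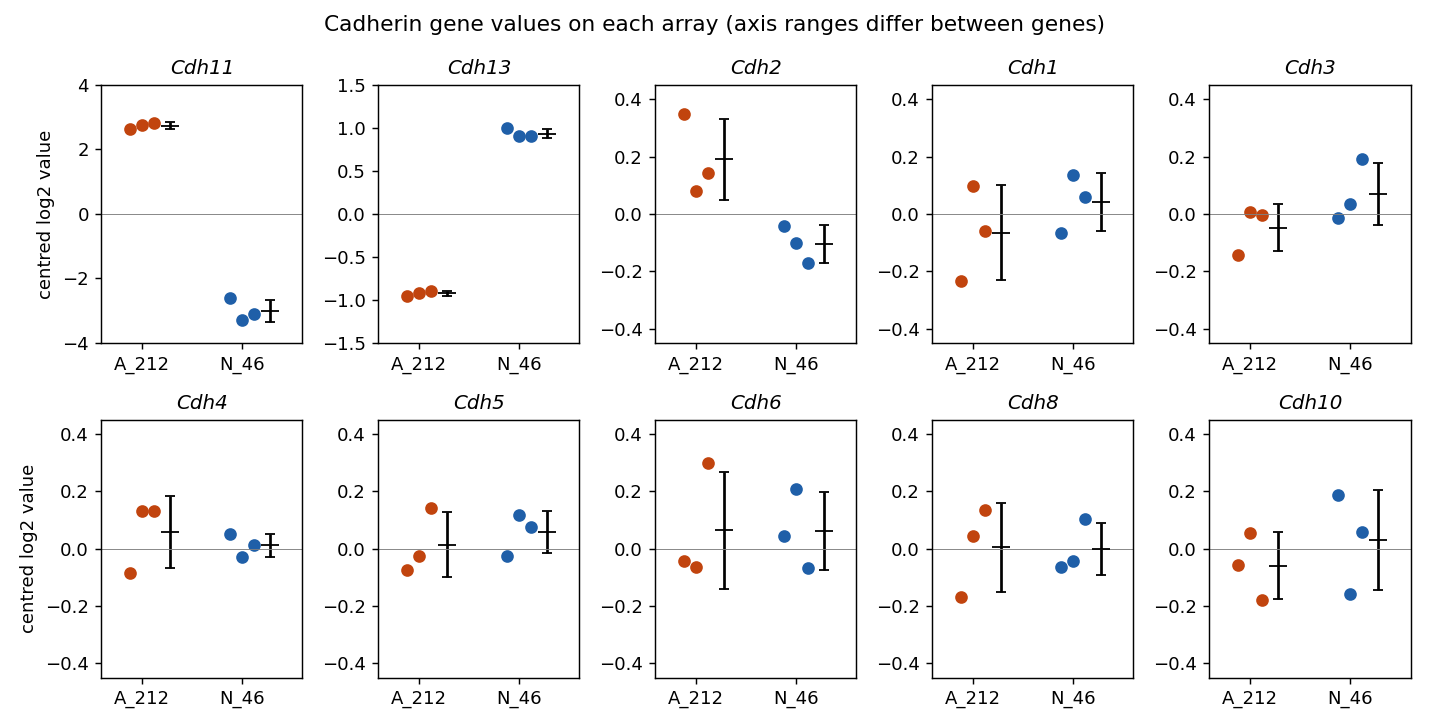
Centred log2 value of each cadherin gene (mean of its probe sets) on the 3 A_212 arrays and the 3 N_46 arrays; points are arrays, and the bar beside them is the mean ± SD. The lines separate for Cdh11, Cdh13 and Cdh2 and overlap for the other 7 genes, whose values all lie between -0.23 and 0.30; the vertical range differs between panels.

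Cdh11 encodes OB-cadherin, a type II cadherin of osteoblasts and other mesenchymal cells that is also found in parts of the developing brain. Its single probe set, 1450757_at, read 2.62, 2.76 and 2.82 in A_212 replicates 1 to 3, against -2.62, -3.27 and -3.11 in N_46 replicates 1 to 3. Every A_212 array was far above every N_46 array, and N_46 replicate 1 was the highest of its line. The values 2.62 and -2.62 mirror each other because the centring places 0 midway between the middle pair of the 6 arrays. The difference, A_212 minus N_46, was 5.74 ± 0.14 on the log2 scale (SE, n = 3 arrays per line; 95% interval 5.42 to 6.06; limma adjusted p = 7.71e-10), or 53.3-fold. The gene ranked 4 among 12393 by size of difference in either direction. Means were 2.73 ± 0.10 in A_212 and -3.00 ± 0.34 in N_46 (SD, n = 3 each). No second probe set named for Cdh11 alone was measured, so the size rests on 1 probe set. Without N_46 replicate 1 the difference was 5.93.

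The 5 genes whose array values lay closest to those of Cdh11 were Mmp2, Thbs2, Postn, Hspb1 and Thbd, by root mean square difference over the 6 arrays. Mmp2, a matrix-degrading metalloproteinase, was nearest at 0.37 and Thbd, the endothelial anticoagulant receptor thrombomodulin, was the farthest of the 5 at 0.55. Their differences ran from 4.80 for Thbd to 5.26 for Mmp2, and they ranked 6, 7, 9, 10 and 11 by size among all genes. Cdh11 had the largest positive difference of all. On values centred in this way, closeness to it largely reflects a similarly large positive difference and nothing more is read from it. Of 12 fibroblast and mesenchymal markers measured, 7 were higher and 1 was lower in A_212, and 4 did not pass. That is 66.7% called, beside 39.2% of all genes, and the list was described without a test of its own. Postn, which encodes the matrix protein periostin (5.14), and Mmp2 were the largest, and both are also among the 5 genes above. The collagen gene Col1a1 (-0.55) was the one that was lower. The mean of this marker list lay between 0.81 and 1.03 on the A_212 arrays and between -0.995 and -0.74 on the N_46 arrays. Their part in the Cdh11 result was not tested.

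Cdh13 encodes T-cadherin, a receptor for adiponectin and low-density lipoprotein that, in the chick, also acts as a negative guidance cue for growing motor axons. The mean of its 3 probe sets was -0.95, -0.91 and -0.90 in A_212 replicates 1 to 3, against 0.996, 0.90 and 0.90 in N_46. The lines did not overlap, and the arrays of each line lay close together. The difference was -1.85 ± 0.07 (SE, n = 3 arrays per line; interval -2.01 to -1.70; limma adjusted p = 1.16e-08), which ranked 259 among all genes by size.

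The 3 Cdh13 probe sets did not behave alike. Probe set 1454015_a_at, of a kind that can match several transcripts of a gene, read -1.58, -1.52 and -1.36 in A_212, against 1.74, 1.42 and 1.36 in N_46. Its difference was -3.00 ± 0.11 (SE, n = 3 arrays per line; limma adjusted p = 1.42e-08 over 22626 probe sets), or 7.98-fold lower in A_212. Probe set 1423551_at read -1.22, -1.27 and -1.28 in A_212, against 1.31, 1.22 and 1.27 in N_46. These readings differed by -2.53 ± 0.07 (limma adjusted p = 2.63e-09), or 5.76-fold. Both separated the lines widely. The SD between plates was 0.03 in A_212 and 0.04 in N_46 for 1423551_at. It was larger for 1454015_a_at, 0.11 in A_212 and 0.20 in N_46.

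The remaining Cdh13 probe set, 1431824_at, read -0.05, 0.05 and -0.05 in A_212, against -0.06, 0.06 and 0.07 in N_46. These values overlapped, and the difference was -0.04 ± 0.08 (95% interval -0.21 to 0.14; limma adjusted p = 0.733). The annotation gives the same sequence record, AK016527, for this probe set and for 1454015_a_at, although their differences were 2.96 apart. The flat probe set pulls the gene mean towards 0: the mean over the other pair was -2.76. Which transcripts each probe set reads was not tested.

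**Figure D2:**
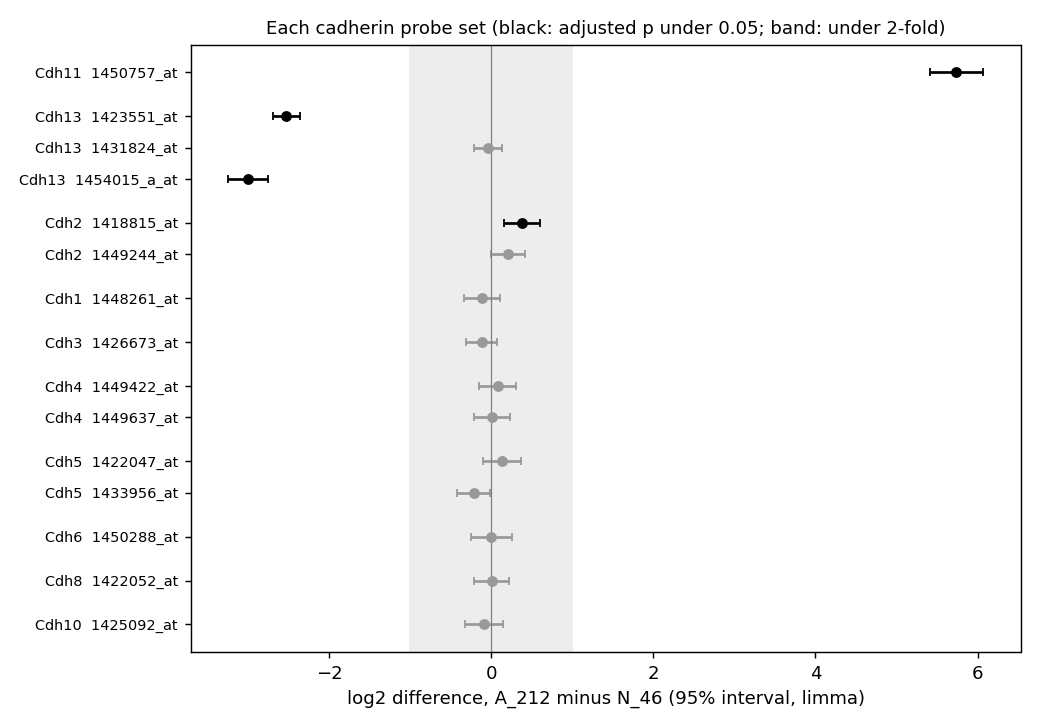
Log2 difference, A_212 minus N_46, of each of the 15 cadherin probe sets with its 95% interval from limma; black points passed at an adjusted p under 0.05 over all probe sets, and the grey band marks differences under 2-fold. Cdh11 stands at 5.74, 2 of the 3 Cdh13 probe sets at -2.53 and -3.00, and the other Cdh13 probe set at -0.04 lies among the cadherins near 0.

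Cdh2 encodes N-cadherin, the main adhesion protein of neural progenitors and neurons, which mesenchymal cells carry as well. Its mean over both probe sets was 0.35, 0.08 and 0.14 in A_212 replicates 1 to 3, against -0.04, -0.10 and -0.17 in N_46. The lines did not overlap, but A_212 replicate 1 stood above the other plates of its line. The difference was 0.30 ± 0.09 (SE, n = 3 arrays per line; 95% interval 0.10 to 0.49; limma adjusted p = 0.0190), or 1.23-fold. The call ended without A_212 replicate 1 (0.22, adjusted p = 0.0707), without N_46 replicate 2 (0.30, adjusted p = 0.0526) and without N_46 replicate 3 (0.26, adjusted p = 0.0797). Over the 14 alternative settings its adjusted p in limma ran from 0.00472 to 0.0797. Probe set 1418815_at passed by itself (0.38 ± 0.10, adjusted p = 0.0120), while 1449244_at had a difference of 0.21 ± 0.09 (adjusted p = 0.114) and passed with array weights (adjusted p = 0.0319) and without A_212 replicate 3 (adjusted p = 0.0472).

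Neural markers are given beside Cdh2. The background for each list is 39.2% of all genes called, 18.3% higher and 20.9% lower in A_212. These lists had no test of their own. Of 10 neural progenitor markers, 1 was higher and 5 were lower in A_212 (60% called). The median difference was -0.18, and list means ran from -0.53 to -0.41 on A_212 arrays and from 0.44 to 0.49 on N_46 arrays. Sox2, a transcription factor of neural stem cells (-7.24), and the RNA-binding protein gene Msi1 (-1.07) were lower, whereas the brain fatty acid-binding protein gene Fabp7 (0.64) was higher. Sox2, with means of -3.57 in A_212 and 3.67 in N_46, weighs heavily in the progenitor list means. Of 14 neuron markers, 2 were higher and 2 lower in A_212 and 10 did not pass (28.6% called). The median difference was -0.08, whereas list means ran from 0.10 to 0.11 in A_212 and from -0.17 to -0.08 in N_46. Stmn2, with means of 1.52 in A_212 and -1.57 in N_46, weighs heavily in those list means. Stmn2 (3.09) and the neuronal tubulin gene Tubb3 (1.13) were higher, and Map2 (-0.25) and Gap43 (-0.24) were lower. The Map2 call ended without N_46 replicate 2 or 3 (adjusted p = 0.0572 and 0.0565), and the Gap43 call without A_212 replicate 2 or N_46 replicate 2 (adjusted p = 0.0639 and 0.0873). Of 8 astrocyte markers, 1 was higher and 2 were lower (37.5% called). The median difference was -0.04, and list means ran from -0.29 to -0.15 in A_212 and from 0.18 to 0.23 in N_46. Slc1a3, a glutamate transporter (-2.47), and Gja1, a connexin (-1.30), were lower. With means of -1.25 and -0.70 in A_212 and 1.22 and 0.60 in N_46, they weigh heavily in the astrocyte list means. Aldoc (0.83) was higher, a call that ended with plain probe sets alone (0.17, adjusted p = 0.302). The part of these genes in the Cdh2 result was not tested.

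The remaining type I cadherins gave no call. Cdh1, the E-cadherin of epithelia, read -0.23, 0.10 and -0.06 in A_212, against -0.07, 0.13 and 0.06 in N_46. Cdh3, the P-cadherin of placenta and basal epithelium, read -0.14, 0.01 and -0.01 in A_212, against -0.01, 0.03 and 0.19 in N_46. Cdh4, the R-cadherin of retina and brain, read -0.09, 0.13 and 0.13 in A_212, against 0.05, -0.03 and 0.01 in N_46. The lines overlapped for all 3 genes. Their differences were -0.11 (95% interval -0.32 to 0.10), -0.12 (-0.30 to 0.06) and 0.05 (-0.13 to 0.23), in that order. These intervals lie well under 2-fold on this scale, but they measure only the spread between plates. The flat Cdh13 probe set 1431824_at had a similarly narrow interval (-0.21 to 0.14) while the other Cdh13 probe sets differed widely. Larger differences in the RNA of these genes are therefore not excluded. Of 12 epithelial markers measured beside these cadherins, 10 did not pass (16.7% called, beside 39.2% of all genes). In A_212, 1 was higher (the keratin gene Krt19, 1.01) and 1 was lower (the desmosomal gene Dsp, -0.77). The median difference was -0.09. The mean of that list ran from -0.07 to 0.07 on A_212 arrays and from 0.02 to 0.03 on N_46 arrays.

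Among the type II cadherins other than Cdh11, none passed in limma, and 0 of these 4 genes had an unadjusted p under 0.05. Cdh5, the VE-cadherin of endothelial junctions, read -0.07, -0.03 and 0.14 in A_212, against -0.02, 0.12 and 0.08 in N_46. Its probe sets differed by 0.13 (1422047_at, adjusted p = 0.376) and -0.22 (1433956_at, adjusted p = 0.0918), with opposite signs that gave a gene difference of -0.04 (95% interval -0.22 to 0.14). The arrays of the lines did not overlap for 1433956_at, and it passed with array weights (adjusted p = 0.0221) and without N_46 replicate 1 (adjusted p = 0.0435). Endothelial markers beside it split, with 3 of 12 higher in A_212, led by Eng (2.44), a TGF-beta co-receptor, and the VEGF receptor gene Flt1 (0.92). Another 3 were lower, among them the fenestral diaphragm gene Plvap (-1.46) and the von Willebrand factor gene Vwf (-0.45). The other 6 did not pass, so 50% were called, beside 39.2% of all genes. The median difference of that list was -0.06, beside -0.06 over all genes. Its means ran from -0.02 to 0.19 in A_212 and from -0.07 to -0.04 in N_46.

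Cdh6, the K-cadherin of kidney and of early neural tissue, read -0.04, -0.06 and 0.30 in A_212, against 0.04, 0.21 and -0.07 in N_46. Cdh8, a cadherin of neuronal circuits, read -0.17, 0.04 and 0.14 in A_212, against -0.06, -0.04 and 0.10 in N_46. Cdh10, which is also expressed in brain, read -0.06, 0.06 and -0.18 in A_212, against 0.19, -0.16 and 0.06 in N_46. In each case the spread between plates of 1 line exceeded the difference between lines. Differences were 0.00 (95% interval -0.24 to 0.25) for Cdh6, 0.01 (-0.20 to 0.21) for Cdh8 and -0.09 (-0.31 to 0.13) for Cdh10. Over the 7 cadherins without a call, limma adjusted p-values ran from 0.287 to 0.989, and the widest bound of any gene interval was 1.25-fold. Single probe sets went further: the Cdh5 intervals reached -0.42 for 1433956_at and 0.37 for 1422047_at. In order of difference, Cdh11 stood first and Cdh2 next, and Cdh13 stood last. The gene intervals of the 7 uncalled cadherins between them all overlapped one another. The interval of Cdh2 also overlapped those of Cdh4, Cdh5, Cdh6, Cdh8 and Cdh10.

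Of the 15 probe sets, 4 passed (26.7%), beside 36.0% of all probe sets (17.1% higher and 19.0% lower in A_212), and 6 had no overlap between the lines, beside 48.7%. The 4 were that of Cdh11, 1418815_at of Cdh2, and 1423551_at and 1454015_a_at of Cdh13.

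Of the 10 genes, 6 lie on mouse chromosome 8, in the order Cdh8, Cdh11, Cdh5, Cdh3, Cdh1 and Cdh13 in the RefSeq table of assembly GRCm38.p6. Cdh6 and Cdh10 lie on chromosome 15, Cdh4 on 2 and Cdh2 on 18. Cdh8, Cdh11 and Cdh5 follow one another with 0 other protein-coding genes between them, and the difference of 5.74 at Cdh11 stood between 0.01 at Cdh8 and -0.04 at Cdh5. The nearest measured genes outside these 3 were Got2 before Cdh8 (0.11, adjusted p = 0.352 in limma) and Bean1 after Cdh5 (-0.28, adjusted p = 0.0131). Cdh3 and Cdh1 are likewise direct neighbours, with Zfp90 (0.01) before the pair and the hyaluronan synthase gene Has3 (-0.34, adjusted p = 0.0169 in limma) the next measured gene after it. Cdh13 has Mphosph6 (-0.37, adjusted p = 0.00139) before it and Hsbp1 (0.11, adjusted p = 0.351) after it. Of 641 measured genes on chromosome 8, 39.9% passed, 86 higher and 170 lower in A_212, with a median difference of -0.09. Over all 12393 genes, 39.2% passed, 2267 higher and 2586 lower, with a median difference of -0.06. The split on chromosome 8 had no test of its own. The nearest genes were named by position, whatever their values.

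**Figure D3:**
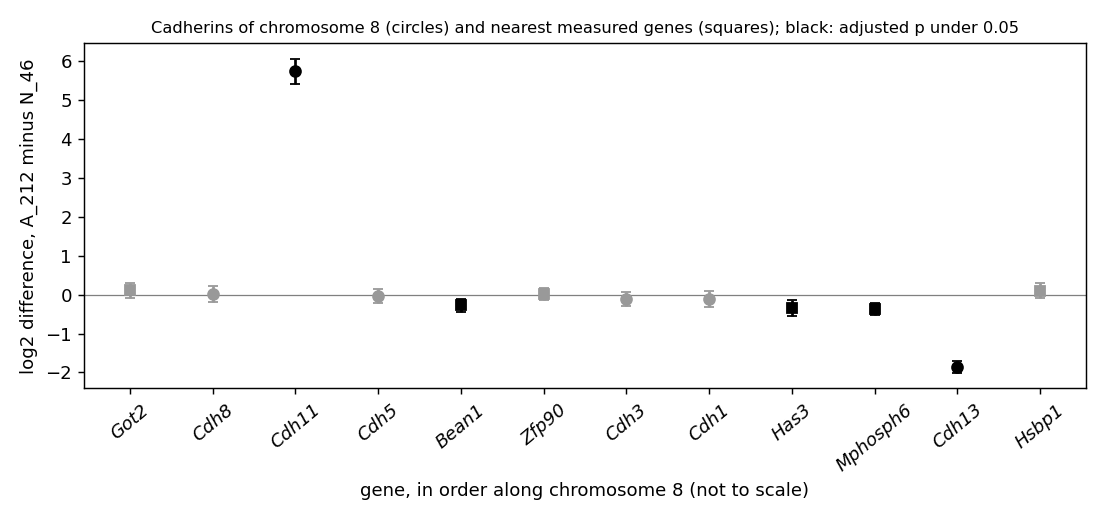
Log2 difference, A_212 minus N_46, with 95% interval from limma, for the 6 cadherins of chromosome 8 (circles) and the nearest measured gene on each side (squares), in chromosome order and not to scale; black marks an adjusted p under 0.05. Cdh11 at 5.74 and Cdh13 at -1.85 stand apart from neighbours that all lie between -0.37 and 0.11.

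Catenins link the cadherin tail to actin. The list described here also holds 2 genes that are not catenins, the vinculin gene Vcl (higher) and Ctnnbip1 (lower). Of its 11 measured genes, 5 were higher and 2 lower in A_212 and 4 did not pass. That is 63.6% called beside 39.2% of all genes (18.3% higher and 20.9% lower). The median difference was 0.20, beside -0.06 over all genes. For this and the following lists, which had no test of their own, nothing particular to the list is read from such shares. The core of the complex differed little: beta-catenin, Ctnnb1, had a difference of 0.05 (adjusted p = 0.648 in limma) and the desmosomal and junctional catenin gene Jup one of -0.14 (adjusted p = 0.273). The p120-catenin gene Ctnnd1, whose product stabilises cadherins at the membrane, had a difference of 0.20 (adjusted p = 0.123) and passed with array weights (0.25, adjusted p = 0.0470). Alpha-catenin, Ctnna1, which ties the complex to actin, was higher by 0.23 (adjusted p = 0.0316), a call that ended with plain probe sets alone (0.17, adjusted p = 0.139) and without any 1 of A_212 replicates 1 and 3 or N_46 replicates 2 and 3. The p120 relatives Arvcf (0.59) and Pkp4 (0.47) were higher in A_212. The neural p120 relative Ctnnd2, delta-catenin, was the catenin with the largest difference and was lower in A_212: it read -0.53, -0.68 and -0.70 in A_212, against 0.94, 0.53 and 0.59 in N_46. Its difference was -1.33 ± 0.11 (adjusted p = 4.45e-06), and the lines did not overlap. Ctnnbip1, an inhibitor of beta-catenin in transcription, was lower (-0.42), and its call ended with plain probe sets alone (-0.18, adjusted p = 0.118).

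Nectins are immunoglobulin-like adhesion proteins that assemble junctions together with cadherins. Of 8 genes measured in this group of nectins and junction scaffolds, 1 was higher and 3 were lower in A_212. That is 50% called, beside 39.2% of all genes, and the median was -0.14. The scaffold gene Lmo7 (1.46) was higher, and the tight junction scaffold gene Tjp1 (-0.94) and the nectin-like Pvr (-0.70) were lower. Of 11 other cadherin superfamily genes measured, 1 was higher and 2 were lower. Here 27.3% were called, beside the same 39.2%, and the median was -0.10. Cdh17, the liver-intestine cadherin, was higher by 0.76, and the photoreceptor cadherin gene Cdhr1 (-0.74) and the hair cell tip-link gene Cdh23 (-0.22) were lower. The Cdh23 call ended when arrays were set to the same median (adjusted p = 0.0543) and without A_212 replicate 2 or N_46 replicate 2 or 3.

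Of 17 partners of cadherins at the membrane and below it, 6 were higher and 3 lower in A_212 (52.9% called, beside 39.2% of all genes), with a median of 0.08. Ptprb, a receptor phosphatase that binds VE-cadherin, read 1.61, 1.49 and 1.09 in A_212, against -1.26, -1.09 and -1.16 in N_46, a difference of 2.57 ± 0.12 (SE, n = 3 arrays per line; limma adjusted p = 6.27e-08). It stood apart between the lines while Cdh5 itself had no call. The Wnt co-receptor gene Lrp5 was higher by 0.91, and the lymphatic VEGF receptor gene Flt4 (-0.72) and Fgfr1 (-0.36), whose product associates with N-cadherin, were lower. Adipoq, which encodes the T-cadherin ligand adiponectin, had a difference of -0.09 (adjusted p = 0.430); it falls outside the rule for named genes and was chosen after its value was seen.

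Proteases and modifiers cut, mature or recycle cadherins. Of 17 measured, 6 were higher and 1 was lower in A_212, with a median of -0.01. That is 41.2% called, beside 39.2% of all genes (18.3% higher and 20.9% lower). Without A_212 replicate 1, and likewise without A_212 replicate 2, only 4 of the 17 passed. The sheddase gene Adam10, whose product releases the ectodomains of several cadherins, was higher by 0.44 ± 0.07, and the receptor phosphatase gene Ptprm by 0.66 ± 0.13. Psenen, a subunit of the gamma-secretase that cleaves cadherin stubs, was lower (-0.36 ± 0.08). Its other measured subunits did not go the same way: Ncstn was higher (0.37 ± 0.08), and Aph1a (0.02) and Psen2 (-0.17) did not pass. These other subunits fall outside the rule for named genes and were chosen after their values were seen.

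The transcription factors of epithelial-mesenchymal transition are known for repressing Cdh1 or for keeping epithelial identity. The list described here also holds the splicing regulator genes Esrp1 and Esrp2, which are not transcription factors and did not pass. Of its 18 measured genes, 7 were higher and 5 lower in A_212 and 6 did not pass. That is 66.7% called beside 39.2% of all genes, with a median of -0.03. Snai1, a repressor of Cdh1, read 0.78, 1.12 and 0.85 in A_212, against -1.06, -0.91 and -0.78 in N_46, a difference of 1.83 ± 0.10 (adjusted p = 3.01e-07 in limma). Foxc2, a mesenchymal forkhead factor, was higher by 1.45. In the other direction stood Zeb1 (-0.57), another Cdh1 repressor, and Twist2 (-0.39). The difference for Cdh1 on the same arrays was -0.11, without a call.

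**Figure D4:**
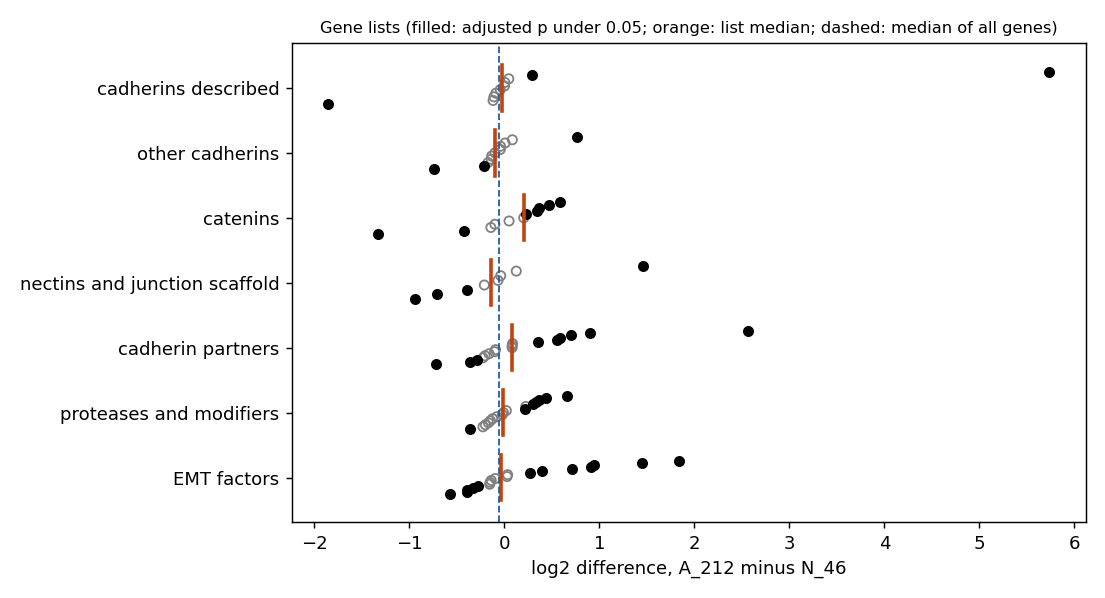
Log2 difference, A_212 minus N_46, of each measured gene in 7 lists; filled points passed at an adjusted p under 0.05, the orange bar is the list median and the dashed line the median of all genes at -0.06. The cadherins lie near 0 apart from Cdh11 at 5.74, Cdh13 at -1.85 and Cdh2 at 0.30. In the catenin list 7 of 11 genes passed and in the EMT (epithelial-mesenchymal transition) list 12 of 18, beside 39.2% of all genes tested.

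Facts of the arrays bear on all of these values. The median SD between plates was 0.10 in A_212 and 0.08 in N_46 over all genes, and 0.12 and 0.10 over the 10 cadherins. Over all genes, which do not count as independent replicates, pairs of arrays within a line had r from 0.80 to 0.86 in A_212 and from 0.82 to 0.92 in N_46. Pairs between the lines had r from -0.89 to -0.85. The values are centred over both lines, so these r carry the difference between the lines and do not measure agreement between plates alone. Precision is limited by the number of arrays. The neuron markers that would identify these lines as neuronal could not be checked for presence, because the centred values hold no level.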

How the data were processed

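RNA from 6 cultures, 3 of A_212 and 3 of N_46, was measured on an Affymetrix mouse array of 22690 probe sets. RMA was used per the submitters' processing notes, with no version given there. The authors deposited log2 values, which proved to be centred to a median of 0 over the 6 arrays for all 22690 probe sets (within 1e-05); no source used here describes that step or states the base. Of the probe sets, 20380 had 1 gene in the platform annotation, 691 had several and 1555 none, and 64 were controls. Gene values were means of all probe sets named for 1 gene alone.

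Samples were grouped by the line in the labels. Differences (A_212 minus N_46) were fitted with limma (lmFit and eBayes) on all 12393 genes and on 22626 probe sets and adjusted by Benjamini-Hochberg over each whole table. The filter on dim probes could not be applied to values without a level and was replaced by one on spread. The members, lists and rules were chosen with earlier results of these data known. Lists are described by counts and medians. The rule named the 10 cadherins, up to 2 called genes each way per list, Ctnnb1, Ctnna1, Ctnnd1 and Jup, and the 5 genes nearest to Cdh11. The fit was tested on simulated data. The 14 alternatives were 2 scalings, array weights, a replicate block, robust eBayes, 2 ways of choosing or joining probe sets, the spread filter and each of the 6 arrays left out. Fits ran in limma 3.58.1 under R 4.3.3, and tables and figures in pandas 2.3.3 and matplotlib 3.10.9 under Python 3.11.15.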

Additional observations from a re-analysis of the deposited data

How the results depend on the processing

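Cdh11 (5.54 to 5.93) and Cdh13 (-2.53 with the median of its probe sets to -1.28 with plain probe sets alone) kept their direction and their call in every alternative, setting aside the spread filter. Between 2 and 3 of the 10 cadherin genes passed in the same alternatives. The spread filter kept Cdh2, Cdh6, Cdh11 and Cdh13 by a spread that the difference between the lines itself sets, so passing under it bears on none of these calls. Over all 14 alternatives, the number of genes called ran from 3837 to 5757. These fits did not all cover 12393 genes: plain probe sets alone covered 10529 and the spread filter 6196. When 1 array was left out, the number ran from 3903 to 5124. The call of Cdh2 ended without A_212 replicate 1 and without N_46 replicates 2 and 3, with differences from 0.22 to 0.35 when 1 array was left out. Differences near 0 and without a call changed sign: with array weights Cdh6 was at -0.040 and Cdh8 at -0.065. Leaving out 1 array gave -0.12 to 0.075 for Cdh6, -0.060 to 0.092 for Cdh8, -0.11 to 0.0015 for Cdh5, -0.0072 to 0.11 for Ctnnb1, and -0.028 to 0.17 and -0.084 to 0.067 for the Cdh4 probe sets 1449422_at and 1449637_at. The cadherin proteases and modifiers had 4 to 7 calls when 1 array was left out, a fit with fewer samples. The causes of the other changes were not tested. Replicate numbers did not pair the arrays (r of deviations -0.03, -0.01 and 0.09), and with the number as a block 4834 genes and 3 cadherins passed.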
